A study of Mus musculus with 6 samples.

Results

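Inflammatory cytokine genes were examined as a set of 10 genes, of 32285 in the gene table: *Tnf*, *Il1a*, *Il1b*, *Il1rn*, *Il18*, *Il16*, *Il6*, *Il10*, *Csf1* and *Osm*. They were taken by symbol from the gene table, and their unique molecular identifiers (UMIs, each standing for 1 captured transcript) were counted in all 6 libraries. The libraries came from 3 male C57BL/6J mice at postnatal day 89, whose whole brains were dissociated by cold Dounce homogenization and sorted for live CD45+/CD11b+ cells. Cells of each mouse were captured once with the 10X Genomics V3.0 kit and once with the V3.1 kit, both of which read transcripts at the 3′ end. Mice 1 and 3 were processed without inhibitors (DNC-NONE), whereas mouse 2 received a cocktail of the transcription blockers actinomycin D and triptolide and the translation blocker anisomycin during processing (DNC-INHIB). A single mouse therefore carries the inhibitor group, and the inhibitor and that mouse cannot be told apart.

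These genes encode secreted messengers with which myeloid cells start, spread and limit inflammation. TNF and IL-6 act early and widely, IL-1α and IL-1β signal through a shared receptor that the antagonist encoded by *Il1rn* occupies without signaling, and IL-18 and IL-1β are cut to their active form by caspase-1. IL-16 is a chemoattractant for CD4-bearing cells, IL-10 restrains cytokine production, CSF-1 maintains macrophages and microglia through CSF1R, and oncostatin M belongs to the IL-6 family. In the brain, microglia and border macrophages are resident sources of several of them, and neutrophils that reach the sample from blood or meninges are another.

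A cell passed with 1000 to 4000 genes, no more than 12000 UMIs and a mitochondrial share of 15% or less, which left 19725 of 29412 barcodes. Microglia numbered 18934, of which 65 held UMIs of both chemokine genes *Ccl3* and *Ccl4*, border macrophages 77 and neutrophils 271, each gated by UMIs of marker genes, and 443 cells were left out. Totals ranged from 6275898 to 18872816 UMIs per library, and the V3.0 library of mouse 3 stood apart, with 21.5% of its barcodes passing against 70.0% to 76.8% in the others. Only 98 barcodes, 38 of them passing, were found in more than 1 library. The classes carried their own markers. The 8 microglial markers summed to 15567 CPM (counts per 1000000 UMIs of the class) in microglia and 1380 in border macrophages, the 7 border markers to 3206 CPM in border macrophages and 5.24 in microglia, and the 11 neutrophil markers to 491676 CPM in neutrophils. Microglia also held 939 CPM of those 11 markers. Border macrophages were few, 20, 43 and 14 cells in mice 1, 2 and 3. They held a median of 3 border and 3 microglial markers per cell. The 3 dendritic cell markers summed to 108 CPM in border macrophages against 1.04 in microglia.

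*Il1a* (chr2:129299610-129309972) and *Il1b* (chr2:129364570-129371139) lie near each other on the minus strand in GRCm38, and *Il1rn* lies on the same chromosome (chr2:24336853-24351494, plus strand). *Tnf* is at chr17:35199381-35202007, *Csf1* at chr3:107741048-107760469, *Il6* at chr5:30013114-30019981, *Il18* at chr9:50554827-50581840, *Il16* at chr7:83642825-83745726, *Il10* at chr1:131019845-131024974 and *Osm* at chr11:4236420-4241026. All 10 are protein-coding genes in GENCODE M21. *Il1b* overlaps the opposite-strand gene *Il1bos*, *Il1a* overlaps *Gm14023*, *Il18* overlaps *Bco2* and *Tex12*, and *Il16* overlaps *Phgdh-ps1* on its own strand and *Stard5* and *2310044K18Rik* on the other, and how such reads were assigned is not given in the sources used here.

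The 250 bases before the start of transcription are printed for the 4 genes that were higher in *Ccl3* and *Ccl4* positive microglia and for *Il6*, which was not, because these 5 make up the contrast described for that state, although 3 of the 4 calls were lost without 2 cells. They come from RefSeq on GRCm38.p6, in which 8 of the 10 members had an entry, *Il10* and *Osm* being the others. The windows are chr17:35202008-35202257 for *Tnf*, chr2:129309973-129310222 for *Il1a*, chr2:129371140-129371389 for *Il1b* and chr3:107760470-107760719 for *Csf1*, all on the minus strand, and chr5:30012864-30013113 for *Il6* on the plus strand. Each reads 5′ to 3′ on the strand of the gene, and capitals mark matches to 4 motifs searched on both strands: the NF-kB motif (GGG and TTTCC with any 2 bases between), the AP-1 motif TGACTCA, the PU.1 motif GAGGAAGT and the TATA box TATAAA.
Tnf: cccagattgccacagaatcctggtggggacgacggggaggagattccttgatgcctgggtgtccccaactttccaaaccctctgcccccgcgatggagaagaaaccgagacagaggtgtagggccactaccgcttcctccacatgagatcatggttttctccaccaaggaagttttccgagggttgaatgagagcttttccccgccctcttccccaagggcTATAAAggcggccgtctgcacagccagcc
Il1a: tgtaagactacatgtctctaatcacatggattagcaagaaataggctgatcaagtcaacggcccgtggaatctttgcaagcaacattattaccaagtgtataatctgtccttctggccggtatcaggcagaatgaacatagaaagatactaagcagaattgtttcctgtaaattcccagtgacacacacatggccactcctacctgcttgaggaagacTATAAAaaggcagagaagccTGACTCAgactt
Il1b: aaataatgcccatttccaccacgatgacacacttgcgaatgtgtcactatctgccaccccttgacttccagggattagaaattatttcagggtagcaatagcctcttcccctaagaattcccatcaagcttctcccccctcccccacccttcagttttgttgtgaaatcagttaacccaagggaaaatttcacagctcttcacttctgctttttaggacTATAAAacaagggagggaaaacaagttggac
Csf1: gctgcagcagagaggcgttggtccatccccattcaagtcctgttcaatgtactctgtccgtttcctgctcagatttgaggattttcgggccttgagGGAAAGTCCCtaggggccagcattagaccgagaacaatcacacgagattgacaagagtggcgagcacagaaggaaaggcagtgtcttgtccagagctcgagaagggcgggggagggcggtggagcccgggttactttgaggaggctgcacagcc
Il6: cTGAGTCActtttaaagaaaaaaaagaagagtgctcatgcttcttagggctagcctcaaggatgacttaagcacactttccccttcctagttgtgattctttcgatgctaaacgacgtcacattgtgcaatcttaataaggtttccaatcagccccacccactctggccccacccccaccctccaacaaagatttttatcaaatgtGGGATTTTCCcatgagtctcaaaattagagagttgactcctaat

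*Tnf*, *Il1a* and *Il1b* each held TATAAA, starting 29, 32 and 31 bases before the start of transcription, and *Csf1* and *Il6* held no match to those letters in these windows. *Il1a* also held TGACTCA starting 12 bases before the start, *Csf1* held GGAAAGTCCC, which is an NF-kB match on the other strand, 154 bases before it, and *Il6* held GGGATTTTCC 44 bases and TGAGTCA 249 bases before it. No 2 matches overlapped, and none of the 5 windows held the PU.1 letters. Among 32536 promoter windows of the same length, 12.3% held TATAAA, 4.45% the AP-1 letters, 2.45% the PU.1 letters and 1.4% the NF-kB letters, in any position. These matches describe letters only.

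The first question was which cytokine transcripts microglia held at rest, and how evenly. Microglia held UMIs of 9 of the 10 members, led by *Il16*, *Il1a* and *Il18*, and spanned more than 2 orders of magnitude in level. *Il16*, the precursor of a CD4 chemoattractant, was the most abundant at 126 ± 4.08 CPM (SD, n = 3 mice) and was found in 34.9% of microglia. *Il1a*, an alarmin of the IL-1 family, stood at 84.1 ± 5.27 CPM and in 24.0% of microglia, and *Il18*, a substrate of caspase-1, at 50.6 ± 2.45 CPM and in 16.0%. Both kits count 1 UMI per captured 3′ end, so levels were not divided by gene length.

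These 3 genes varied little between libraries. *Il16* was at 124, 133 and 125 CPM in the V3.0 libraries of mice 1, 2 and 3 and at 128, 125 and 121 CPM in the V3.1 libraries. *Il1a* was at 92.5, 84.3 and 94.9 CPM with V3.0 and at 87.2, 77.2 and 78.5 CPM with V3.1, and *Il18* was at 51.0, 45.8 and 41.9 CPM with V3.0 and at 55.1, 50.4 and 52.9 CPM with V3.1. The ranges of the 3 genes did not overlap.

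*Il6* followed at 18.5 ± 2.85 CPM (SD, n = 3 mice) and in 6.01% of microglia (95% exact interval 5.68 to 6.36), a level set by many cells with 1 UMI each: 88.5% of the positive microglia held a single UMI and the richest held 4. By library it was at 15.6, 23.3 and 20.2 CPM with V3.0 and at 19.0, 19.9 and 15.9 CPM with V3.1, above *Osm* and below *Il18* in every library. No *Il6* UMI was found in 271 neutrophils, which allows a share of cells with a UMI of up to 1.11%, or in 77 border macrophages, which allows up to 3.90%, and these limits are not on cells that express the gene.

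The remaining members were rare. *Osm* was at 9.70 ± 0.657 CPM (SD, n = 3 mice) and in 3.36% of microglia, *Csf1* at 8.29 ± 2.61 CPM and in 2.23%, *Il1b* at 4.71 ± 3.16 CPM and in 0.977%, and *Tnf* at 3.63 ± 1.08 CPM and in 1.04%. The library ranges of *Osm* and *Csf1* overlapped, as did those of *Csf1*, *Il1b* and *Tnf*, so the ranges do not settle the order of these genes. Within each library, however, *Csf1* was above *Tnf*. *Il1rn* was near absent, with 18 UMIs in 12 of 18934 microglia, 7 of them in a single cell, and *Il10* had no UMI in any class, which allows up to 0.0158% of microglia with a UMI. *Snap25*, a neuronal gene that sorted myeloid cells should lack, was found in 0.201% of microglia at a median depth of 3509 UMIs, a share above that of *Il1rn* and below those of the other 8 detected members.

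**Figure D1:**
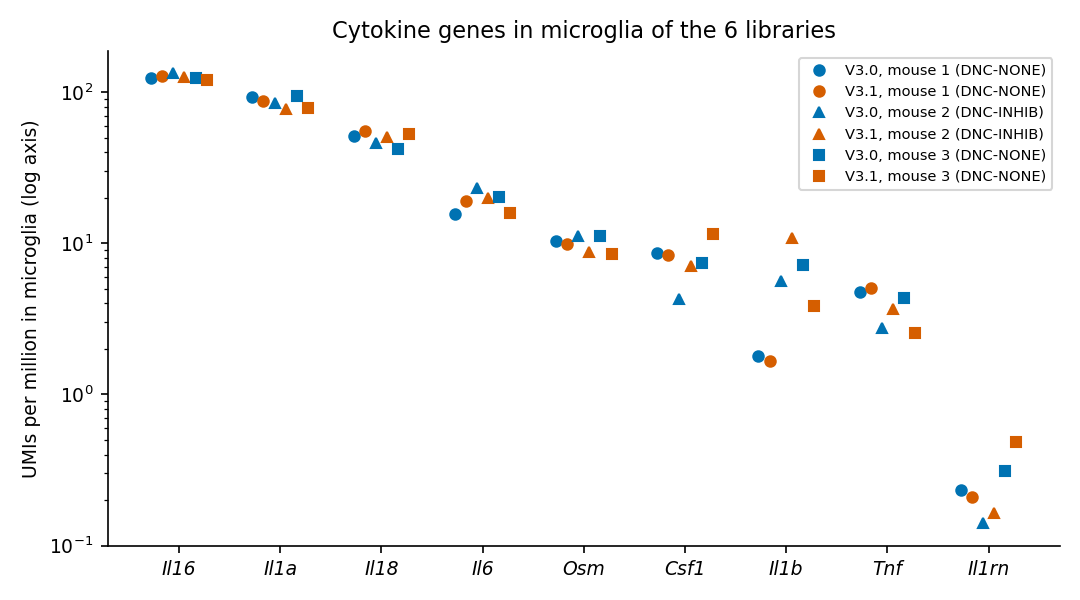
Level of each detected cytokine gene in the microglia of each library, in CPM on a log axis, colored by kit and shaped by mouse. *Il16*, *Il1a*, *Il18* and *Il6* form 4 bands that do not overlap, whereas *Il1b* ranges from 1.67 to 10.8 CPM.

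Shares fell with depth but the order of the leading genes did not. With each cell thinned to 2000 UMIs, which left out 751 shallower microglia, *Il16* was found in 21.7%, *Il1a* in 14.5%, *Il18* in 9.55% and *Il6* in 3.54% of microglia. *Osm* was then found in 1.93%, *Csf1* in 1.24%, *Tnf* in 0.643% and *Il1b* in 0.577%. *S100a9*, a neutrophil gene, was found in 71.4% of microglia, and the source of these UMIs was not tested. At the ratio of each gene to *S100a9* in neutrophils, microglia would hold 18.4 UMIs of *Il1b*, where 337 were counted, and 2.32 of *Tnf*, where 249 were counted. For *Il1rn* the same ratio gives 13.9 UMIs, where 18 were counted. These values take the gated neutrophils as the sole source. The barcodes that did not pass held 859 *Il1b* UMIs beside 224411 of *S100a9*, against 222 beside 343013 in neutrophils. No estimate was made from those barcodes.

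The main contrast of these 6 libraries was between kits, and the question here was whether these genes differed between them. In microglia 8 members passed the filter on low counts, and none was called between V3.1 and V3.0, where 3.05% of all 12016 genes tested were called (edgeR quasi-likelihood test with Benjamini-Hochberg adjustment, adjusted p below 0.05 and log2 fold change beyond 0.58, 3 libraries per kit). *Il18* was the sole member at an unadjusted p below 0.05, at a log2 fold change of 0.18 ± 0.08 (SE) with an adjusted p of 0.157 by edgeR, and its V3.1 level exceeded its V3.0 level in 3 of 3 mice. *Il1a* and *Osm* were lower with V3.1 in 3 of 3 mice, at log2 fold changes of -0.14 ± 0.07 and -0.25 ± 0.13. DESeq2 also called 0 members, with 0 at an unadjusted p below 0.05. The median log2 fold change was -0.04 over the 8 members and 0.0014 over all genes tested.

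*Il1b* and *Tnf* moved in opposite directions in different mice. *Il1b* went from 1.79 to 1.67 CPM in mouse 1, from 5.62 to 10.8 CPM in mouse 2 and from 7.14 to 3.83 CPM in mouse 3 between V3.0 and V3.1. *Tnf* went from 4.75 to 5.02, from 2.74 to 3.69 and from 4.34 to 2.55 CPM in the same mice. *Csf1*, a growth factor for microglia, was at 8.64, 4.29 and 7.45 CPM with V3.0 and at 8.37, 7.05 and 11.4 CPM with V3.1, for a log2 fold change of 0.48 ± 0.25 (SE) that did not pass the test (adjusted p = 0.225 by edgeR), and the kits overlapped. The 2 V3.1 libraries with the most *Csf1* and *Il1b* each held 1 cell that carried a large part of the count, described with the *Ccl3* and *Ccl4* positive microglia. Pairing the kits within a mouse (replicate block) left 0 members called. Of the 8 tested, 3 rather than 1 then had an unadjusted p below 0.05 by edgeR. *Il18* had an adjusted p of 0.0491 by edgeR at a log2 fold change of 0.19, short of the fold threshold.

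In neutrophils 4 members passed the filter, and 0 were called between kits by edgeR or DESeq2, where 0.271% of 2584 genes were called. *Il1rn* was the sole one at an unadjusted p below 0.05 by edgeR, with a log2 fold change of 0.64 ± 0.30 (SE) and an adjusted p of 0.614 by edgeR. DESeq2 found 0 at that level. *Il1b*, *Il16* and *Osm* were at 0.33 ± 0.59, -0.48 ± 0.23 and -0.24 ± 0.45 (SE) in neutrophils. In border macrophages 0 members passed the filter, so no member was tested between kits there, where 0.806% of 496 genes were called. The difference of the kit effect between classes was called for 0 of 5437 genes by edgeR, so it says nothing particular to the members, and several members had too few UMIs in border macrophages or neutrophils for such a test (*Il1rn* had 0 and *Il1a* 3 in border macrophages). *Il1b* in border macrophages was the sole member at an unadjusted p below 0.05, and DESeq2 was not run on that difference.

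**Figure D2:**
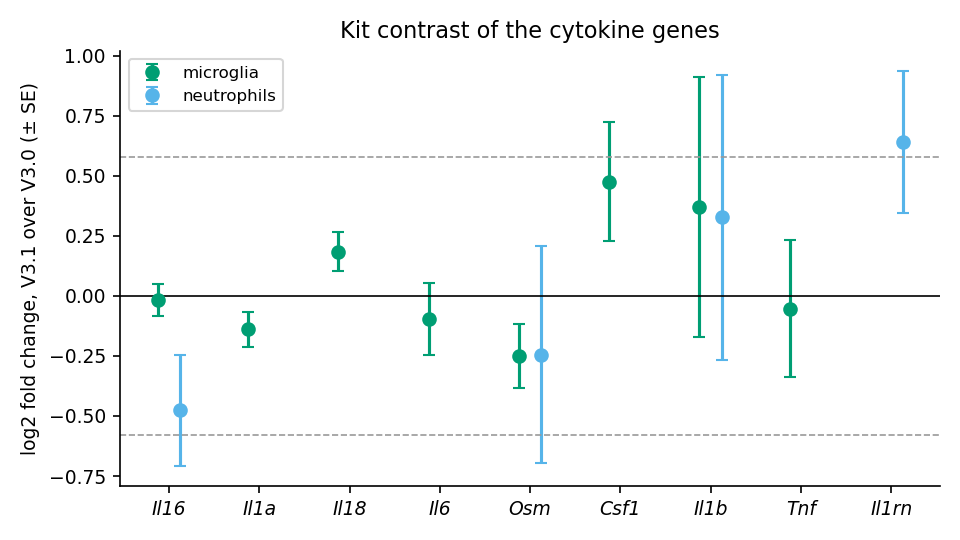
Log2 fold change of each testable cytokine gene between V3.1 and V3.0 in microglia and in neutrophils, with bars of 1 SE from edgeR and dashed lines at the fold threshold of 0.58. The microglial values run from -0.25 to 0.48, and no gene in either class passed both thresholds.

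The inhibitor contrast set the 1 DNC-INHIB mouse against the 2 DNC-NONE mice, with both kits summed per mouse, so that the lone mouse was assumed to vary like the others. In microglia *Il1b* was called higher and *Csf1* lower in DNC-INHIB, 2 of 9 members tested, where 0.880% of 13189 genes were called, and *Tnf*, *Il1a*, *Il18*, *Il16*, *Il6*, *Osm* and *Il1rn* did not pass. *Il1b* was at 1.74, 8.02 and 4.37 CPM in mice 1, 2 and 3, with a log2 fold change of 1.43 ± 0.23 (SE; adjusted p = 1.33e-07 by edgeR). *Csf1* was at 8.52, 5.56 and 10.8 CPM in mice 1, 2 and 3, with a log2 fold change of -0.78 ± 0.20 (SE; adjusted p = 0.00902 by edgeR). Mouse 2 lay outside the other mice for both genes, but the DNC-NONE mice also differed from each other, and the fit has 1 residual degree of freedom and no replicate of DNC-INHIB, so these p-values rest on 1 mouse. The medians were -0.07 over the 9 members and -0.0054 over all genes.

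The *Il1b* call depended on the test and the kit, and the *Csf1* call also on single cells. DESeq2 called neither, with adjusted p of 1.00 for both, and the V3.0 libraries alone gave 0 calls, with *Il1b* at a log2 fold change of 0.89 and *Csf1* at -0.93. Without the 2 microglia richest in *Il1b* and in *Csf1*, *Il1b* had a log2 fold change of 1.04 ± 0.25 (SE) and *Csf1* was not called (-0.54 ± 0.21). Both values again rest on a single DNC-INHIB mouse. *Il6* was at 17.0, 21.8 and 16.6 CPM in mice 1, 2 and 3, for a log2 fold change of 0.38 ± 0.13 (SE; adjusted p = 0.144 by edgeR).

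With both kits summed, *Il1b* was highest in mouse 2 and lowest in mouse 1 in each cell class, but in the V3.0 microglia alone mouse 3 was highest. Border macrophages held 12.8, 135 and 32.0 CPM in mice 1, 2 and 3, from 1, 26 and 2 UMIs, too few to order mice 1 and 3. Neutrophils held 32.9, 252 and 126 CPM from 21, 143 and 58 UMIs, and the share of neutrophils with *Il1b* was 5.61%, 22.8% and 20.8%. Mouse 1 was uneven between kits in neutrophils, at 66.2 CPM with V3.0 and 2.97 CPM with V3.1, the latter a single UMI. Inhibitor effects were tested in microglia only.

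**Figure D3:**
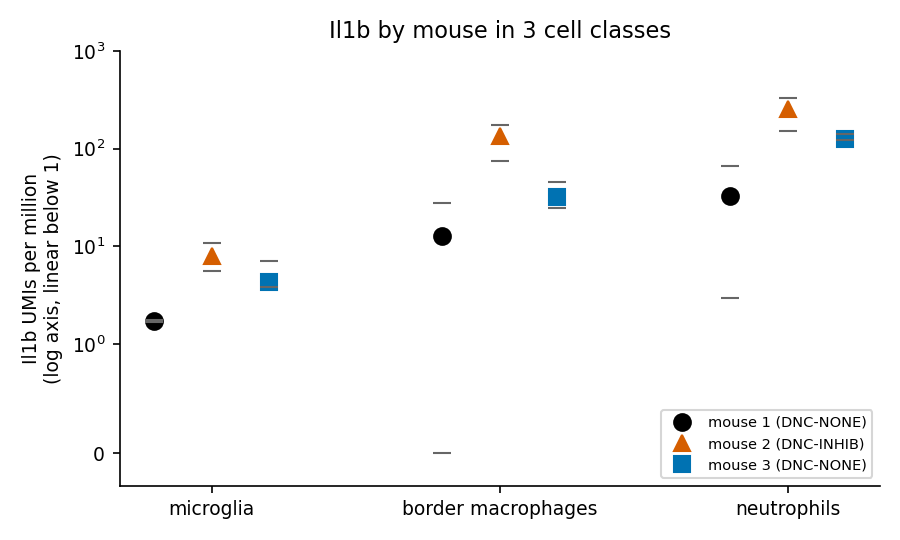
*Il1b* in CPM (log axis, linear below 1) by mouse in microglia, border macrophages and neutrophils, with large symbols for both kits summed and dashes for the single libraries. Mouse 2 (DNC-INHIB) is highest in each class, at 8.02, 135 and 252 CPM.

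Between cell classes the cytokine genes split clearly. Neutrophils held far more *Il1rn* and *Il1b* than microglia and more *Osm*, and far less *Il1a* and *Il18*. Of 6 members tested, 4 were called higher (*Il1rn*, *Il1b*, *Osm* and *Il16*) and 2 lower in neutrophils than in microglia, where 68.0% of 7511 genes were called, so most genes differed between these classes and the count alone says little about the cytokine genes. The test was edgeR with the mouse as a block, and the median log2 fold change over all genes was -0.27. Members could pass the filter on low counts through the class in which they were high, so these counts are a description. The same holds for the p-values of members between classes given below.

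*Il1rn* showed the largest difference. It was at 124, 86.3 and 84.9 CPM in the neutrophils of mice 1, 2 and 3 and at 0.223, 0.151 and 0.457 CPM in their microglia, and it was found in 42.1% of neutrophils against 0.0634% of microglia (median depths of 5792 and 3509 UMIs). The classes did not overlap, and the CPM of all neutrophils was 381 times that of all microglia. The microglial level rests on 18 UMIs, close to the 13.9 that the ratio to *S100a9* gives, so this ratio is a description. Against border macrophages, in which *Il1rn* had 0 UMIs, it was at least 11.2-fold higher, taking 3 UMIs over the class as the floor.

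*Il1b* was at 133 CPM in neutrophils against 4.92 CPM in microglia, for a log2 fold change of 6.29 ± 0.23 (SE; adjusted p = 6.54e-82 by edgeR), and every mouse had more in neutrophils. Its UMIs were concentrated: 23 of the 42 positive neutrophils held 3 or more, the richest held 24, and the 10 richest held 54.5% of the 222 UMIs. *Osm* was at 23.5, 58.1 and 28.3 CPM in the neutrophils of mice 1, 2 and 3 and at 10.1, 10.0 and 8.95 CPM in their microglia, and these did not overlap, with a log2 fold change of 3.39 ± 0.32 (SE; adjusted p = 8.61e-22 by edgeR). *Tnf* did not pass the filter and was at 16.8 CPM in neutrophils against 3.63 CPM in microglia, nor did *Csf1*, at 8.40 against 8.03 CPM, and *Il10* was at 0 in both.

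*Il16* depended on the scaling. It was at 115 CPM in neutrophils and 126 CPM in microglia, and it was called higher in neutrophils at a log2 fold change of 1.38 ± 0.16 (SE; adjusted p = 8.69e-15 by edgeR) with TMM factors, and likewise at 1.31 with RLE size factors and with DESeq2, all of which discount a few very abundant genes. With class totals instead, it turned to -0.17 ± 0.15 (adjusted p = 0.276 by edgeR), and the median of all genes moved from -0.27 to -1.82. Thinned to 2000 UMIs, 21.4% of neutrophils and 21.7% of microglia held *Il16*. The other 5 members kept their call and direction with class totals, and the log2 fold changes of 4 of them became 4.75 for *Il1b*, 1.85 for *Osm*, -5.57 for *Il1a* and -3.62 for *Il18*. Over all genes the calls were 2260 higher and 2845 lower with TMM factors and 879 higher and 5640 lower with class totals.

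*Il1a* and *Il18* were lower in neutrophils under both scalings. *Il1a* was at 0, 1.76 and 4.35 CPM in the neutrophils of mice 1, 2 and 3, from 3 UMIs in all, against 90.2, 81.0 and 81.2 CPM in their microglia, and *Il18* was at 4.20 CPM in neutrophils against 50.4 CPM in microglia. Their log2 fold changes were -4.03 ± 0.53 and -2.08 ± 0.48 (SE; adjusted p = 2.34e-12 and 4.36e-05 by edgeR). *Il6*, with 0 UMIs in neutrophils, was at least 10.4-fold lower there than in microglia on the CPM scale. On that scale the 11 neutrophil markers took 491676 CPM in neutrophils, and the bound is not corrected for them.

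Border macrophages differed from microglia in 2 of 6 members tested, where 19.3% of 7511 genes were called. *Il1b* was higher, at 86.8 CPM against 4.92 CPM, with a log2 fold change of 4.18 ± 0.45 (SE; adjusted p = 4.86e-17 by edgeR), and it was higher in 3 of 3 mice, although 26 of its 29 UMIs came from mouse 2. Without mouse 2 its log2 fold change was 3.17 with an adjusted p of 0.137 by edgeR, which ended the call. *Il1a* was lower, at 0, 15.5 and 0 CPM in mice 1, 2 and 3, for a log2 fold change of -2.85 ± 0.63 (SE; adjusted p = 9.89e-05 by edgeR). All 3 of its UMIs came from mouse 2, and without that mouse the class was at 0 and the fitted value of -12.26 gives no size. *Il16* at 65.9 CPM, *Il18* at 35.9 CPM and *Osm* at 8.98 CPM did not pass the test, *Tnf* and *Csf1* had 3 UMIs each and did not pass the filter, and *Il1rn*, *Il6* and *Il10* were at 0. With class totals *Il16* was also called lower (-0.96 ± 0.31, adjusted p = 0.0115 by edgeR).

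Neutrophils were also called higher than border macrophages in *Il1b*, *Il1rn*, *Il16* and *Osm* and lower in *Il18*, 5 of 6 members, where 48.2% of 7511 genes were called. *Osm* had 3 UMIs in border macrophages, all from mouse 2, and *Il18* had 12 there and 7 in neutrophils. *Il1rn* had 0 UMIs in border macrophages, so its fitted value gives no size. *Il1b* had a log2 fold change of 2.10 ± 0.32 (SE; adjusted p = 1.54e-09 by edgeR), which was 0.99 with class totals. Monocyte markers moved with these classes, at 3268 CPM in neutrophils, 590 CPM in border macrophages and 17.5 CPM in microglia, and their part in the *Il1b* difference was not tested.

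**Figure D4:**
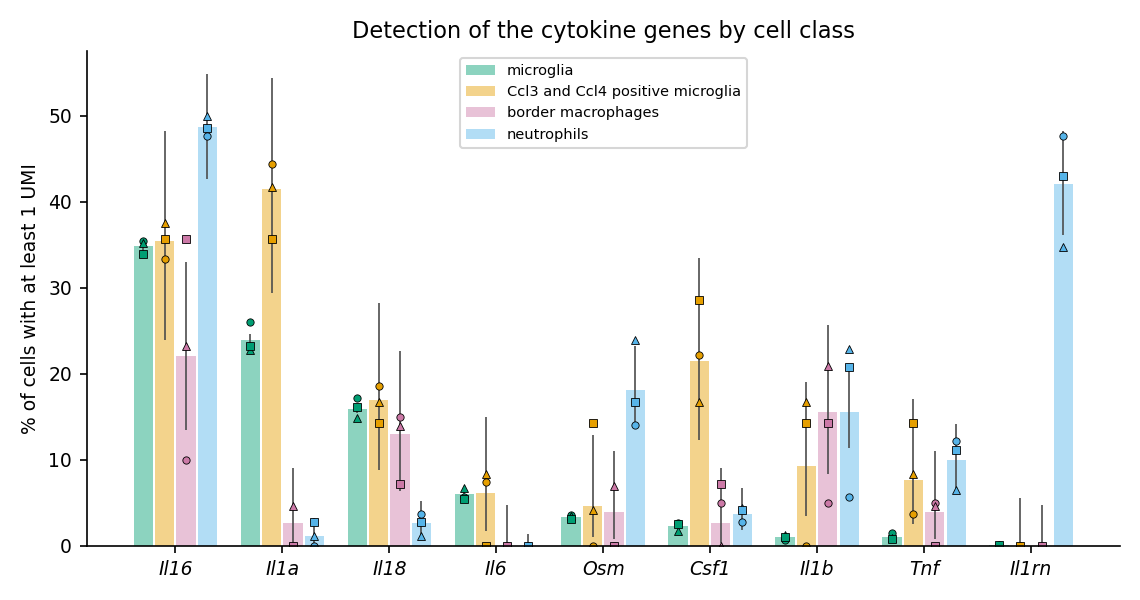
Percent of cells with at least 1 UMI of each cytokine gene by cell class, without thinning, with bars for all cells, lines for 95% exact intervals (counting error only) and points for the 3 mice (circle, triangle and square for mice 1, 2 and 3). *Il1rn* appears almost solely in neutrophils (42.1%), *Il1a* in microglia (24.0%), and *Il6* in no neutrophil or border macrophage.

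A further comparison asked whether microglia that carry chemokine transcripts, 65 cells in all, also carry cytokine transcripts. These *Ccl3* and *Ccl4* positive microglia (27, 24 and 14 in mice 1, 2 and 3) held more *Csf1*, *Il1b*, *Tnf* and *Il1a* than other microglia, 4 of 8 members tested, where 1.73% of 11499 genes were called (edgeR with the mouse as a block). *Il16*, *Il18*, *Il6* and *Osm* did not pass, and *Il1rn* and *Il10* had 0 UMIs in these cells. The median log2 fold change was 1.09 over the 8 members and -0.21 over all genes. Over all genes 99 were called higher and 100 lower, against 124 and 31 with RLE size factors, and the 4 members stayed called under both. DESeq2 called 3 of the 4, without *Il1b* (adjusted p = 0.151 by DESeq2), and requiring 3 UMIs of each chemokine also left 3, without *Il1a* (adjusted p = 0.375 by edgeR). The class had a median depth of 4137 UMIs against 3507 in other microglia, and its microglial markers summed to 12584 CPM against 15580.

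*Csf1* was higher in every mouse, at 165, 94.8 and 1056 CPM in the positive cells of mice 1, 2 and 3 against 7.72, 5.24 and 7.29 CPM in other microglia, with a log2 fold change of 5.39 ± 0.44 (SE; adjusted p = 8.21e-32 by edgeR). It was found in 21.5% of positive cells. *Il1a* was also higher in every mouse, at 130, 558 and 199 CPM against 90.0, 79.3 and 80.8 CPM, with a log2 fold change of 1.69 ± 0.21 (SE; adjusted p = 2.24e-12 by edgeR), and was found in 41.5% of positive cells.

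*Il1b* and *Tnf* were uneven. *Il1b* was at 0, 632 and 107 CPM in the positive cells of mice 1, 2 and 3 against 1.75, 5.77 and 4.03 CPM, with a log2 fold change of 5.37 ± 0.60 (SE; adjusted p = 4.93e-16 by edgeR), and mouse 1 did not follow. *Tnf* was at 8.68, 158 and 138 CPM against 4.84, 2.62 and 2.40 CPM, with a log2 fold change of 4.73 ± 0.65 (SE; adjusted p = 2.61e-10 by edgeR), from 1, 15 and 9 UMIs. Both genes were found in few positive cells, *Il1b* in 6 and *Tnf* in 5.

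A large part of these UMIs lay in 2 cells. A cell of mouse 2 in the V3.1 library, of 4777 UMIs and with 7 of the 8 microglial markers, held 57 UMIs of *Il1b*, 40 of *Il1a* and 14 of *Tnf*, the highest count of each gene in any microglia, but 1 UMI of *Ccl3* and 2 of *Ccl4*. That cell held 16.9% of all microglial *Il1b* UMIs. A cell of mouse 3 in the V3.1 library, of 6522 UMIs and with all 8 markers, held 62 UMIs of *Csf1*, 53 of *Ccl3*, 148 of *Ccl4*, 5 each of *Il1a* and *Il1b* and 3 of *Tnf*. Neither held a UMI of a border macrophage or monocyte marker, and they held 3 and 2 of the 11 neutrophil markers.

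Without these 2 cells *Csf1* alone stayed called among the members. It was at 165, 77.6 and 119 CPM in the positive cells of mice 1, 2 and 3, from 19, 7 and 7 UMIs. These levels were far above other microglia in each mouse, with a log2 fold change of 4.06 ± 0.51 (SE, adjusted p = 1.69e-12 by edgeR). *Tnf* had a log2 fold change of 3.10 ± 0.95 (adjusted p = 0.0678 by edgeR), *Il1b* 2.24 ± 1.10 (adjusted p = 0.497 by edgeR) and *Il1a* 0.59 ± 0.27 (adjusted p = 0.428 by edgeR), the last still higher in 3 of 3 mice at 130, 144 and 136 CPM. Leaving out mouse 2 likewise left *Csf1* as the 1 member called. The choice to leave out the 2 cells was made after their values were seen.

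**Figure D5:**
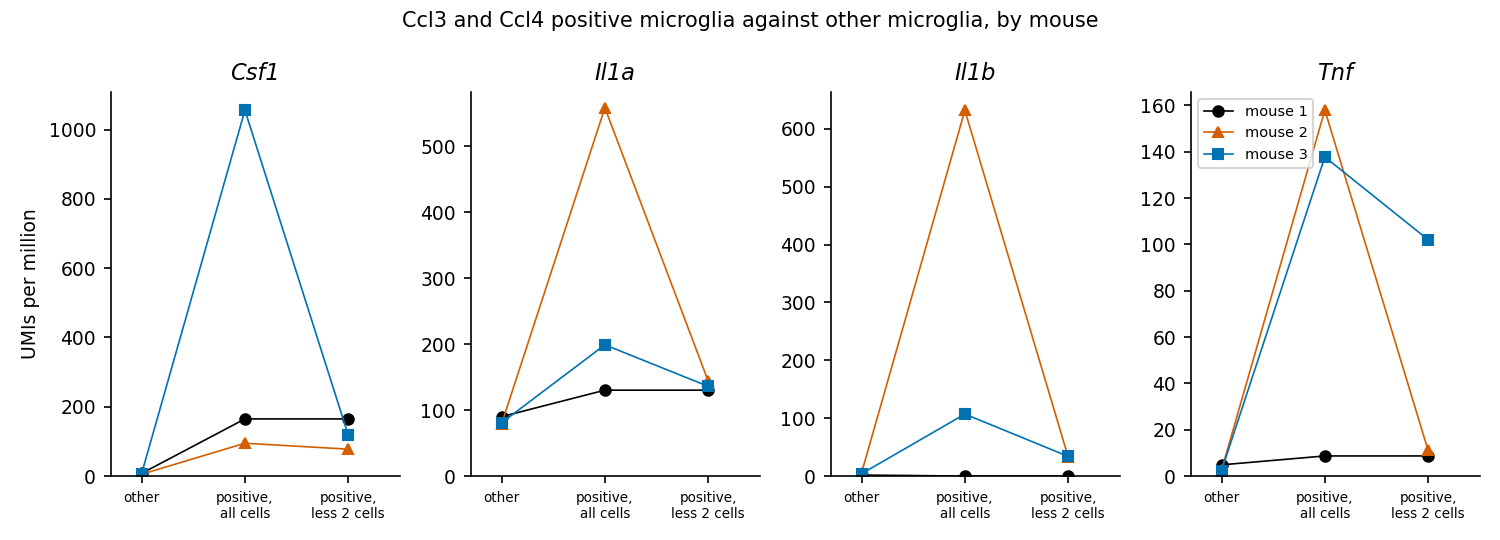
*Csf1*, *Il1a*, *Il1b* and *Tnf* in CPM by mouse in other microglia, in all *Ccl3* and *Ccl4* positive microglia and in the positive cells less the 2 richest. *Csf1* stays at 77.6 to 165 CPM without the 2 cells, whereas *Il1b* falls from 632 to 33.3 CPM in mouse 2.

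*Il1rn*, the IL-1 antagonist, was concentrated in another cell. A microglia of mouse 3 with 7 *Il1rn* UMIs held 21 of *Ccl4* and 0 of *Ccl3*, and so was not in the positive class. It carried 6 of the 8 microglial markers, 4 of the 11 neutrophil markers, where the median microglia carried 2, and 1 monocyte marker. By detection in single microglia thinned to 2000 UMIs, *Tnf* was found together with *Il1b* in 4 cells, 5.92 times the product of their shares, with *Ccl4* in 6 cells (5.04 times) and with *Csf1* in 5 cells (3.45 times). *Il1b* was found with *Ccl4* in 6 cells (5.62 times) and *Csf1* with *Ccl4* in 9 cells (3.93 times). *Il6* was found with *Ccl3* in 6 cells (0.623 times) and with *Tnf* in 4 cells (0.965 times), and all of these counts are small. The 2 cells richest in *Il1b* and in *Csf1* were among the microglia counted, so these ratios are not separate from the values above.

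Genes of the same pathways were counted from a list of 42 receptors, processing enzymes and signaling genes. Between kits in microglia 0 of 34 tested were called by edgeR or DESeq2, where edgeR called 3.05% of all genes. The inhibitor contrast rests on a single DNC-INHIB mouse, so no count is given for it here. *Ccl3* and *Ccl4* positive microglia were lower than other microglia in 2 of 33, where 1.73% of all genes were called. These were *Il10ra*, the IL-10 receptor, at -0.76 ± 0.21 (SE; adjusted p = 0.0191 by edgeR) and *Pycard*, the inflammasome adaptor, at -0.58 ± 0.16 (adjusted p = 0.0268 by edgeR). Counts this small do not set the pathway genes apart from all genes. DESeq2 called 0 of the 33, and so did edgeR with RLE size factors.

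Neutrophils were higher than microglia in 14 and lower in 12 of 31 pathway genes tested, where 68.0% of all genes were called. Pathway genes could pass the low-count filter through the class in which they were high, so counts and p-values between classes are a description. *Il1r2*, the decoy receptor for IL-1, rose with *Il1rn*, at a log2 fold change of 9.37 ± 0.39 (SE; adjusted p = 1.96e-69 by edgeR), as did *Il18rap* at 8.93 ± 0.27 and *Irak3*, a brake on IL-1 signaling, at 4.71 ± 0.35. *Csf1r*, the receptor for CSF-1, was lower at -5.08 ± 0.22, the IL-6 family receptor chain *Il6st* at -6.22 ± 0.61 and *Il10ra* at -4.02 ± 0.31 (SE). With class totals in place of TMM factors 3 were called higher (*Il1r2*, *Il18rap* and *Irak3*) and 19 lower, so the other rises depended on the scaling. *Casp1*, which cuts IL-1β and IL-18, went from 0.97 ± 0.25 and called with TMM factors to -0.57 ± 0.23 and not called, whereas *Pycard* was lower under both, at -1.59 ± 0.16 and -3.14 ± 0.15.

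Border macrophages were higher than microglia in 3 and lower in 6 of 31 pathway genes, where 19.3% of all genes were called. *Lifr*, *Il10rb* and *Casp1* were higher, at log2 fold changes of 1.20 ± 0.24, 0.75 ± 0.19 and 0.99 ± 0.35 (SE). *Csf1r* was lower at -1.17 ± 0.17, *Il6st* at -2.01 ± 0.44, *Adam17*, the sheddase that releases TNF, at -1.41 ± 0.37, *Pycard* at -1.38 ± 0.22, *Il10ra* at -0.99 ± 0.26 and *Il6ra* at -0.76 ± 0.20. With class totals *Lifr* alone was called higher and 10 were called lower. Against border macrophages, neutrophils were higher in 11 and lower in 8 of the 31 (48.2% of all genes), with *Il1r2* and *Il18rap* again higher and *Csf1r* and *Lifr* lower.

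The genes with the most similar pattern were found by the correlation of log2(CPM + 1) over 12 sums (3 mice by 4 classes), among 12313 genes with at least 50 UMIs. *Il1rn* was like *1700047M11Rik* and *Itgb2l*, at a Pearson r of 1.00 and 0.999, and *Il6* was most like *Rnf157*, *Mllt3* and *Gm1976* at 0.998 and 0.997. *Il1a* was most like *Timm8a1*, *Il18* like *Zmynd8*, *Il16* like *Kdm5b* and *Osm* like *Abcc4*, at 0.987, 0.987, 0.964 and 0.975. *Tnf*, *Csf1* and *Il1b* had no close match, with *Atg16l2* at 0.889, *Gem* at 0.855 and *Pcyt1a* at 0.832. The 12 points share mice and libraries and are dominated by the difference between neutrophils and the rest, so these values describe likeness only.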

How the data were processed

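The 6 libraries held single-cell UMI counts, which the authors made with Cell Ranger 5.0.0 per the labels and deposited as 1 matrix of whole counts per library, on mm10 with a filtered Ensembl annotation. The filters on cells and the marker gates were applied here. A microglial cell had at least 5 of 8 microglial markers and at most 1 border and 5 neutrophil markers, a border macrophage at least 2 of 7 border markers and at most 4 microglial markers, and a neutrophil at least 6 of 11 neutrophil markers. Cells with at least 2 lymphocyte markers were left out of every class. Those with at least 3 monocyte markers were left out of microglia and border macrophages, but not out of neutrophils. No doublet caller was run, and the upper limits and the gates stand in for one.

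UMIs were summed per library, or per mouse and class, and tested with edgeR 4.0.16 in R 4.3.3 (quasi-likelihood, TMM, filterByExpr, Benjamini-Hochberg over all genes). Genes were called below an adjusted p of 0.05 where the log2 fold change also passed 0.58 in size. The mouse was a block between classes but not between kits. Both kits were loaded from the same mouse, and the pairing rests on the sample numbers in the labels. The deviations of same-numbered libraries correlated at 0.371, 0.513 and 0.199 over 500 genes. Libraries of different numbers were not compared, so these values do not test the pairing. Alternatives were DESeq2 1.42.0, RLE size factors, class totals, other filters and gates, the block, and leaving out mice, libraries or cells. Shares of cells have exact Clopper-Pearson 95% intervals, which, like the limits for a count of 0 (3 counts), cover counting error only. The mouse is the sole biological replicate. Libraries of 1 mouse differ in kit and in the cells they captured, and these parts were not told apart. The members and lists were chosen with earlier results of these data known. The members were named throughout, and pathway genes were counted by direction. A withheld item among the genes of similar pattern is not reported here.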

Additional observations from a re-analysis of the deposited data

Results flagged for a closer look

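*Il1a* in neutrophils was singled out because 1 library lay far from the others: the V3.0 library of mouse 3 held 11.8 CPM, which was 1 UMI in 16 neutrophils, against 3 UMIs in all 271 neutrophils. Of 17 sets of 6 libraries examined this way 1 stood out, and chance alone marks about 1 in 20.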

How the results depend on the processing

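Of 563 fold changes of single members recomputed under an alternative, 512 kept their direction and their side of the thresholds, 19 lost a call, 1 gained one, 1 changed direction and 30 changed sign without being called either way. The change of direction was *Il16* between neutrophils and microglia, at -0.17 with class totals, which lack the TMM correction. Between DNC-INHIB and DNC-NONE the members called fell from 2 to 0 with DESeq2 or the V3.0 libraries alone, and to 1 with the V3.1 libraries alone, without the 2 richest microglia or without barcodes found in more than 1 library (*Csf1* adjusted p = 0.0565 by edgeR), and over all genes from 116 to 17 (DESeq2), 3 (V3.0) and 74 (V3.1). Leaving out 1 mouse could not be fitted there. In *Ccl3* and *Ccl4* positive microglia the 4 members called fell to 3 with DESeq2 or with 3 UMIs of each chemokine required, to 1 without the 2 richest cells and ranged from 1 to 4 with a mouse or library left out, and the 199 genes fell to 77 with DESeq2, 44 without mouse 2 and 85 without mouse 3. Border macrophages against microglia ranged from 1 to 2 members called with a mouse or library left out, 1 being without mouse 2, neutrophils against microglia from 6 to 7, or 9 with no filter on low counts, and neutrophils against border macrophages from 4 to 5. The 4 comparisons between classes of the same mice kept the number of members called without the replicate block. With the replicate block, the kits differed in 0 members in each class, as without it, and in 546 rather than 366 genes in microglia. Those 366 became 188 without mouse 1, 136 without mouse 2 and 408 without mouse 3. The causes of these shifts were not tested. Border macrophages were too few for a kit comparison of the members, which passed the low-count filter in 0 cases.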

Other observations

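The cells that fell into none of the 3 classes held *Il1b* at a higher CPM than each of the 3 classes as a whole. Of these 443 cells 122 (27.5%) held *Il1b*, at 175 CPM, against 133 CPM in neutrophils and 86.8 CPM in border macrophages. Of the 398 *Il1b* UMIs in the left-out cells, 281 lay in the 305 left out for neither lymphocyte nor monocyte markers, at 208 CPM. The 100 that carried monocyte markers held 117, at 151 CPM. By mouse those 100 cells were at 8.59, 273 and 59.7 CPM in mice 1, 2 and 3. Mouse 2 was highest and mouse 1 lowest there, as in the 3 classes with both kits summed. *Il6* was at 3.51 CPM in the left-out cells and *Il10* had 0 UMIs. In the 9687 barcodes that did not pass the filters, *Il1b* was at 83.0 CPM, *Il1rn* at 14.1 CPM and *Il10* had 0 UMIs.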
